A study of Homo sapiens with 9 samples.

Results

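CXCR4, CXCR5, CCR7 and S1PR1 are the 4 homing receptor genes described here, through the open chromatin regions found around them in the human leukaemic T cell line Jurkat (Clone E6-1). Members were taken as merged regions of 4 peak lists, with overlapping or touching peaks joined, that lay within the gene body or within 50 kb of the transcription start site (TSS) of each gene. This gave 25 of 40703 regions of the autosomes, X and Y, of which 7 lay at CXCR4, 8 at CXCR5, 8 at CCR7 and 2 at S1PR1.

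Regions came from FAIRE-seq, in which cells are fixed and sonicated and the DNA that stays in the aqueous phase after phenol extraction, and so carries few nucleosomes, is sequenced beside total input DNA. The series held 9 libraries, 1 for each group. Cells were pre-treated with DMSO, the study's vehicle, or with 15 µM rottlerin for 1 h, a compound used as a kinase inhibitor. By the labels they were not stimulated (NS), or stimulated with 24 ng/mL PMA and 1 µM calcium ionophore for 4 h (ST). Stimulated cells were then washed and rested for 1 day (SW) or, after the rest, stimulated again for 2 h (RS). The labels and the study's methods differ in the length of the first stimulation, and the labels' time is given. Peak lists of 4 libraries were used, labelled NS_DMSO, SW_DMSO, NS_rottlerin and SW_rottlerin. The remaining 5 samples are not analysed here.

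The labels of these lists are in doubt. In its methods the study called and merged peaks of the DMSO libraries of every state, and the lists used here merge to the same number of regions as that merge. That number does not show which list belongs to which state. The NS_DMSO label was kept as the baseline without a check, and the other 3 lists may be those of the ST, SW and RS cells after DMSO. Every list is therefore given as the list labelled with its name, and no difference between lists is ascribed to rottlerin or to stimulation. With 1 library behind each list, differences between lists have no replicate check and no p-value. The depth of the libraries is unknown from these lists, so a region without a peak was not called in that library, which does not show that it was closed. The lists held 18977 to 30409 peaks on the autosomes, X and Y and covered 6.69 to 11.5 Mb, with NS_DMSO the shortest and SW_rottlerin the longest, and part of any gain of peaks in a longer list cannot be told apart from that length.

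Homing receptors guide lymphocytes between blood, lymph node and tissue. CXCR4 binds CXCL12 and holds cells in the bone marrow and other niches. CXCR5 binds CXCL13 and draws cells into B cell follicles. CCR7 binds CCL19 and CCL21 and brings naive and central memory T cells into the T cell zone of lymph nodes. S1PR1 senses sphingosine 1-phosphate (S1P), and cells that carry it can leave the lymph node. All of them are receptors coupled to inhibitory G proteins, and stimulated T cells change their surface levels as they stop recirculating.

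The genes lie on different chromosomes. On GRCh37 with GENCODE annotation, CXCR4 (ENSG00000121966) is at chr2:136871919-136876747 on the minus strand, CXCR5 (ENSG00000160683) at chr11:118754601-118768496 on the plus strand, CCR7 (ENSG00000126353) at chr17:38710021-38721724 on the minus strand and S1PR1 (ENSG00000170989) at chr1:101702421-101709269 on the plus strand. Distances are given from the TSS to the mid-point of a region, along the direction of transcription.

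The sequences that carry the main patterns are shown from the GRCh37 plus strand, 5′ to 3′, with matches to 10 consensus sequences (given with their letters further on) in capitals. They are up to 300 bases from the centre of the merged region, without untranslated or coding sequence. The first pair are the CXCR4 region called in every list, 17.5 kb upstream, at chr2:136894142-136894441, and the part of the CXCR4 promoter region before the gene, at chr2:136876748-136877019.
CXCR4 upstream: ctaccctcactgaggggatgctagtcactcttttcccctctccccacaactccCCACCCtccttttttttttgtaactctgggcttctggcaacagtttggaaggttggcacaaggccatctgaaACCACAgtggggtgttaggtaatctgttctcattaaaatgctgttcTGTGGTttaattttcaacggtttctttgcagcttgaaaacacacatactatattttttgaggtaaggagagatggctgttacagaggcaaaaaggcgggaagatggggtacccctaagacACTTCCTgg
CXCR4 promoter: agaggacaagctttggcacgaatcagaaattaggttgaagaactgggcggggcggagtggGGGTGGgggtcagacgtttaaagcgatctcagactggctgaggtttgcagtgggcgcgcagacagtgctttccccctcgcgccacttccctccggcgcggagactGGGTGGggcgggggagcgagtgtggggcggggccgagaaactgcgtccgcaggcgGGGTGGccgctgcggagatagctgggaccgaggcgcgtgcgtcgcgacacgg
The next is the intronic region of CXCR5 with the highest enrichment at that gene, at chr11:118763206-118763505, and the one CXCR5 region called in the NS_DMSO list.
CXCR5 intron: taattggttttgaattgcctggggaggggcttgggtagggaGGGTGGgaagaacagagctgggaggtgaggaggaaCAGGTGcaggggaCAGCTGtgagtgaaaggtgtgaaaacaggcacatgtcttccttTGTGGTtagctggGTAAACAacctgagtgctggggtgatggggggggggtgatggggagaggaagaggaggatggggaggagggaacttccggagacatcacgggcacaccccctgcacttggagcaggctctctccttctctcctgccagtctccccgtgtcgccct
The following pair are from CCR7. The region 34.1 kb downstream, called in the 2 lists labelled SW, is at chr17:38687500-38687799, and the region 48.5 kb downstream, called in every list, at chr17:38673071-38673370.
CCR7 34.1 kb downstream: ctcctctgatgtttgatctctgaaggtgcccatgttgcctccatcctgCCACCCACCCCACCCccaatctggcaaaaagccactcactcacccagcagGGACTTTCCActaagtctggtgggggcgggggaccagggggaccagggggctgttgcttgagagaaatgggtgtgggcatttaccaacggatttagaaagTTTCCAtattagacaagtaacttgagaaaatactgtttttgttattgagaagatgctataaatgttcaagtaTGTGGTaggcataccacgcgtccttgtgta
CCR7 48.5 kb downstream: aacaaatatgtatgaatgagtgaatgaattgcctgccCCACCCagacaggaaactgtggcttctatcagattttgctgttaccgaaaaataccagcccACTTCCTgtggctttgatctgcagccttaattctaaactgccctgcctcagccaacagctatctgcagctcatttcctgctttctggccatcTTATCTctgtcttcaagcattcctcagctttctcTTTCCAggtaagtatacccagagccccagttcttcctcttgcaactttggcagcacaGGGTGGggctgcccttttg
The last is the S1PR1 region called in 3 lists, at chr1:101728250-101728549.
S1PR1 26.0 kb downstream: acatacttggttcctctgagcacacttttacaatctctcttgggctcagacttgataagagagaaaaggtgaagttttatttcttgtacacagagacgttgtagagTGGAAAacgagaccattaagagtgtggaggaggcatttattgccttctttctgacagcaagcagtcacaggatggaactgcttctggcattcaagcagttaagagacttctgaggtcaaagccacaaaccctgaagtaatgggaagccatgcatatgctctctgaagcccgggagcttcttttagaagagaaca

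Each of the 4 genes had its own pattern of calls across the lists. CXCR4 had regions with a peak in 6, 4, 2 and 4 cases in the lists labelled NS_DMSO, SW_DMSO, NS_rottlerin and SW_rottlerin, so that the shortest list held the most. CXCR5 had 1, 1, 6 and 6, and CCR7 had 3, 6, 5 and 7. S1PR1 had 1, 1, 0 and 2. Of the 25 regions, 14 (56.0%, 95% Wilson interval 37.1 to 73.3%) had no NS_DMSO peak, against 53.5% of all regions. The genes split unevenly under this total, with 1 of 7 regions at CXCR4, 7 of 8 at CXCR5, 5 of 8 at CCR7 and 1 of 2 at S1PR1 lacking an NS_DMSO peak. This split depends on the window. With 100 kb in place of 50 kb, 6 of 13 regions at CXCR4 and 9 of 11 at CXCR5 lacked one. A peak in every list was found at 3 regions (12.0%, interval 4.17 to 30.0%), against 26.6% of all regions, and a peak in 1 list only at 7 regions (28.0%) against 38.8%. These intervals cover counting error only, and regions of one gene are not independent.

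When each list was held to the peaks with the lowest q-values, as many as the shortest list has, the genes still differed in their pattern of calls. CXCR4 then had 6, 4, 0 and 2 regions with a peak in the lists in the same order, and CCR7 had 3, 6, 4 and 7. CXCR5 fell to 1, 1, 3 and 3 and S1PR1 to 1, 1, 0 and 1. Regions without an NS_DMSO peak then numbered 1 at CXCR4, 3 at CXCR5, 4 at CCR7 and 0 at S1PR1, and the CXCR5 count changed most. In all these were 8 of 19 regions (42.1%), against 41.5% of all regions at that length.

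**Figure D1:**
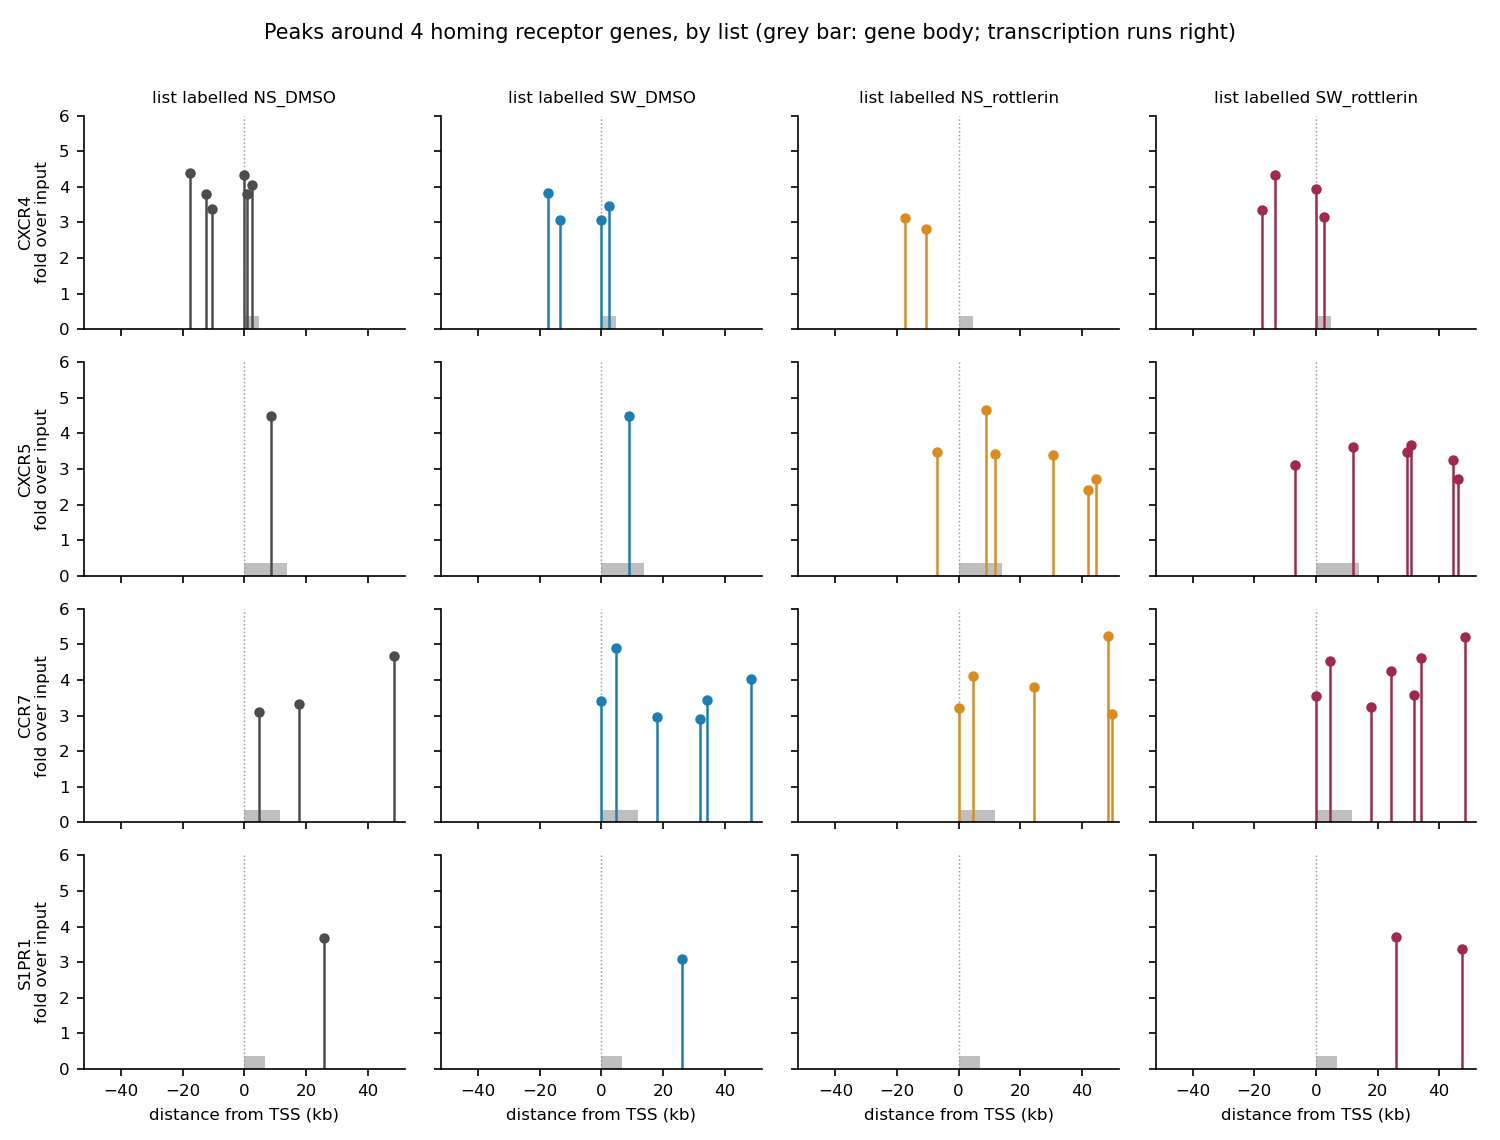
Peaks around CXCR4, CXCR5, CCR7 and S1PR1 (rows) in the lists labelled NS_DMSO, SW_DMSO, NS_rottlerin and SW_rottlerin (columns), with the distance of the merged region from the TSS in kb on the x axis and fold enrichment over input on the y axis. Each stem is 1 region with a peak in that list, the grey bar is the gene body and the dotted line the TSS. CXCR4 has 6 stems in NS_DMSO and 2 in NS_rottlerin, CXCR5 has 1 in each DMSO-labelled list and 6 in each rottlerin-labelled list, and S1PR1 has none in NS_rottlerin.

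All 7 CXCR4 regions lay within 20 kb of its TSS, 4 upstream of the promoter, 1 at it and 2 in the gene, and CXCR4 was the nearest coding gene of each. Here and below, enrichment is the fold enrichment over input that the peak caller gave, with the highest peak where a list had several in a region. The strongest CXCR4 region was 17.5 kb upstream in intergenic sequence (chr2:136893805-136894778). Its enrichment was 4.40 in NS_DMSO, 3.84 in SW_DMSO, 3.12 in NS_rottlerin and 3.34 in SW_rottlerin. The other 3 lists were thus all below NS_DMSO, at ratios of 0.873, 0.71 and 0.761, and the peak itself was 971 bp wide in NS_DMSO, 959 bp in SW_DMSO, 497 bp in NS_rottlerin and 518 bp in SW_rottlerin. Its q-value ran from 1.85e-07 in NS_DMSO to 0.0157 in NS_rottlerin, the weakest call of the 55 member peaks.

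The CXCR4 promoter region (chr2:136876712-136877028) overlaps 36 bp of untranslated sequence at the gene's start and lay mostly in the sequence before it. Enrichment was 4.35 in NS_DMSO, 3.07 in SW_DMSO and 3.93 in SW_rottlerin, and no peak was called in NS_rottlerin. The peak covered the TSS itself in NS_DMSO, while it began 9 bp upstream of it in SW_rottlerin and 82 bp upstream in SW_DMSO. The SW_DMSO value was 0.706 times that of NS_DMSO, the lowest ratio among members in that comparison. Within the gene, the intronic region 2.5 kb from the TSS (chr2:136873663-136874792) had 4.06 in NS_DMSO, 3.45 in SW_DMSO and 3.15 in SW_rottlerin, with a peak 1030 bp wide in NS_DMSO, 210 bp in SW_DMSO and 835 bp in SW_rottlerin. Here too NS_DMSO was the highest list.

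The remaining CXCR4 regions were narrower and called in fewer lists. The intronic region 1.0 kb from the TSS had an enrichment of 3.79 in NS_DMSO and no other peak, and the same held for the region 12.5 kb upstream, also at 3.79. The region 10.6 kb upstream had 3.37 in NS_DMSO and 2.81 in NS_rottlerin. The single CXCR4 region without an NS_DMSO peak lay 13.3 kb upstream (chr2:136889996-136890182), with 3.08 in SW_DMSO and 4.33 in SW_rottlerin, and its nearest NS_DMSO peak, that of the region 12.5 kb upstream, was 648 bp away. The peaks of the list in all CXCR4 regions together covered 2858 bp in NS_DMSO, 1534 bp in SW_DMSO, 666 bp in NS_rottlerin and 1711 bp in SW_rottlerin. Of 20163 coding genes, 95.8% had fewer regions with an NS_DMSO peak than CXCR4, and 44.6% had fewer with an NS_rottlerin peak.

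CXCR5 had the opposite distribution. No list had a peak over its TSS. The 300 bp around the TSS held 26 CpG dinucleotides at CXCR4 and 6 at CCR7, which both had a region there. They held 12 at S1PR1 and 8 at CXCR5, where no region covered the TSS. The intronic region 8.8 kb from the TSS (chr11:118763188-118763524) had an enrichment of 4.49 in NS_DMSO, 4.48 in SW_DMSO and 4.66 in NS_rottlerin, and none in SW_rottlerin, the longest list. Where it was called its values spanned 1.04-fold, the narrowest span among members called in 3 or more lists. It was the only CXCR5 region in NS_DMSO or SW_DMSO. From read counts in merged regions, the study names CXCR5 among genes near regions more accessible in its SW than its NS cells. Peak calls are a different measure, and they were not compared with those counts.

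The other 7 CXCR5 regions were called in the rottlerin-labelled lists alone. Nearest to the gene, the region 6.9 kb upstream had 3.48 in NS_rottlerin and 3.12 in SW_rottlerin. The region 11.9 kb from the TSS, within untranslated sequence where CXCR5 meets the oppositely transcribed BCL9L, had 3.43 and 3.61. Beyond the gene, the region 30.7 kb downstream had 3.41 and 3.68, and the one 29.7 kb downstream had 3.49 in SW_rottlerin alone, both inside an intron of BCL9L, a co-factor of beta-catenin. The others lay in an annotated intron of UPK2, a urothelial membrane protein gene. Of these the region 42.1 kb downstream, with 2.42 in NS_rottlerin, was 84 bp from the BCL9L TSS, the region 44.6 kb downstream had 2.72 in NS_rottlerin and 3.25 in SW_rottlerin, and the region 46.1 kb downstream had 2.71 in SW_rottlerin. The 3 lowest values of the 55 member peaks, 2.42, 2.71 and 2.72, were all here, and a value lower than 2.42 was seen in 0.176% of NS_rottlerin peaks.

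Only 3 of the 8 CXCR5 regions had CXCR5 as the nearest coding TSS, which leaves 2 of 3 without an NS_DMSO peak. No NS_DMSO peak lay within 2.9 kb of any of the 7, and for the 5 beyond the gene the nearest was 20.8 to 36.8 kb away. Of 20163 coding genes, 98.0% had fewer regions without an NS_DMSO peak than the 7 of CXCR5, and of the 13369 genes no longer than 50 kb, 99.4% had fewer. With the lists held to equal length the count at CXCR5 was 3.

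CCR7 had 1 region at its promoter, 1 in the gene and 6 downstream, and none further upstream. The promoter region (chr17:38721630-38721880) covered the TSS, with an enrichment of 3.41 in SW_DMSO, 3.22 in NS_rottlerin and 3.55 in SW_rottlerin. It had no NS_DMSO peak, and the nearest was 4.2 kb away. For all coding genes, 35.8% of coding genes had a region over the TSS in any list and 28.7% had a peak there in NS_DMSO.

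The region 4.7 kb into CCR7 (chr17:38716567-38717477), in intron and alternative untranslated sequence, was called in every list and was wide in each, at 809 bp in NS_DMSO, 838 bp in SW_DMSO, 878 bp in NS_rottlerin and 911 bp in SW_rottlerin. Its enrichment was 3.10 in NS_DMSO, 4.90 in SW_DMSO, 4.10 in NS_rottlerin and 4.55 in SW_rottlerin, so NS_DMSO was the lowest and the other 3 stood at 1.58, 1.32 and 1.47 times its value. Of the NS_DMSO peaks 8.99% had a lower value than the one here, and of the SW_DMSO peaks 78.7%. This region was the one member region with a 1.5-fold difference from NS_DMSO in any list, and this was reached in SW_DMSO.

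Downstream of CCR7, the region 48.5 kb from the TSS (chr17:38673045-38673397), overlapping an exon of the long non-coding gene ENSG00000266088, was the strongest of all member regions. It had 4.67 in NS_DMSO, 4.03 in SW_DMSO, 5.25 in NS_rottlerin and 5.21 in SW_rottlerin, and its nearest coding TSS was that of TNS4, a focal adhesion protein gene, at 15.3 kb. The region 17.9 kb downstream had 3.33 in NS_DMSO, 2.96 in SW_DMSO and 3.25 in SW_rottlerin. These and the region in the gene made up the CCR7 regions with an NS_DMSO peak.

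Further CCR7 regions appeared in pairs of lists. The regions 31.9 and 34.1 kb downstream were called in the lists labelled SW alone, with 2.89 in SW_DMSO and 3.58 in SW_rottlerin at the first and with 3.44 and 4.63 at the second (chr17:38687439-38687860). The q-value of the second was 1.9e-05 in SW_DMSO and 2.04e-11 in SW_rottlerin. The region 24.5 kb downstream was called in the rottlerin-labelled lists, with 3.82 in NS_rottlerin over 186 bp and 4.25 in SW_rottlerin over 682 bp. The region 49.8 kb downstream, the last within the window, had 3.04 in NS_rottlerin only and lay 871 bp from an NS_DMSO peak. CCR7 was the nearest coding TSS of 5 of its 8 regions, 3 of them without an NS_DMSO peak, and 93.9% of coding genes had fewer regions without one than the 5 in its window.

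Of the 4 genes, S1PR1 had the least open chromatin called around it. Neither its TSS nor its body held a peak in any list. The region 26.0 kb from the TSS, in intergenic sequence beyond the gene (chr1:101728228-101728571), had 3.68 in NS_DMSO, 3.08 in SW_DMSO and 3.72 in SW_rottlerin, and no peak in NS_rottlerin. The region 47.4 kb from the TSS (chr1:101749704-101749878) had 3.37 in SW_rottlerin, the longest list, and in no other. A count below 2 regions was found for 29.1% of coding genes, and the median over coding genes was 3.

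The limit of 50 kb left out regions close by. Just inside it were the CCR7 region 49.8 kb from the TSS, with 3.04 in NS_rottlerin, and the S1PR1 region at 47.4 kb, with 3.37 in SW_rottlerin. Just outside it, a region 51.7 kb downstream of the S1PR1 TSS had 3.73 in SW_DMSO, 3.24 in NS_rottlerin and 3.41 in SW_rottlerin. One 53.5 kb downstream of the CXCR4 TSS had 3.84 in NS_rottlerin and 3.99 in SW_rottlerin, and one 54.7 kb upstream of CCR7 had 3.63 in SW_rottlerin. The nearest beyond the CXCR5 window was 90.8 kb upstream, with 3.41 in SW_DMSO and 3.59 in SW_rottlerin. None of these had an NS_DMSO peak.

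**Figure D2:**
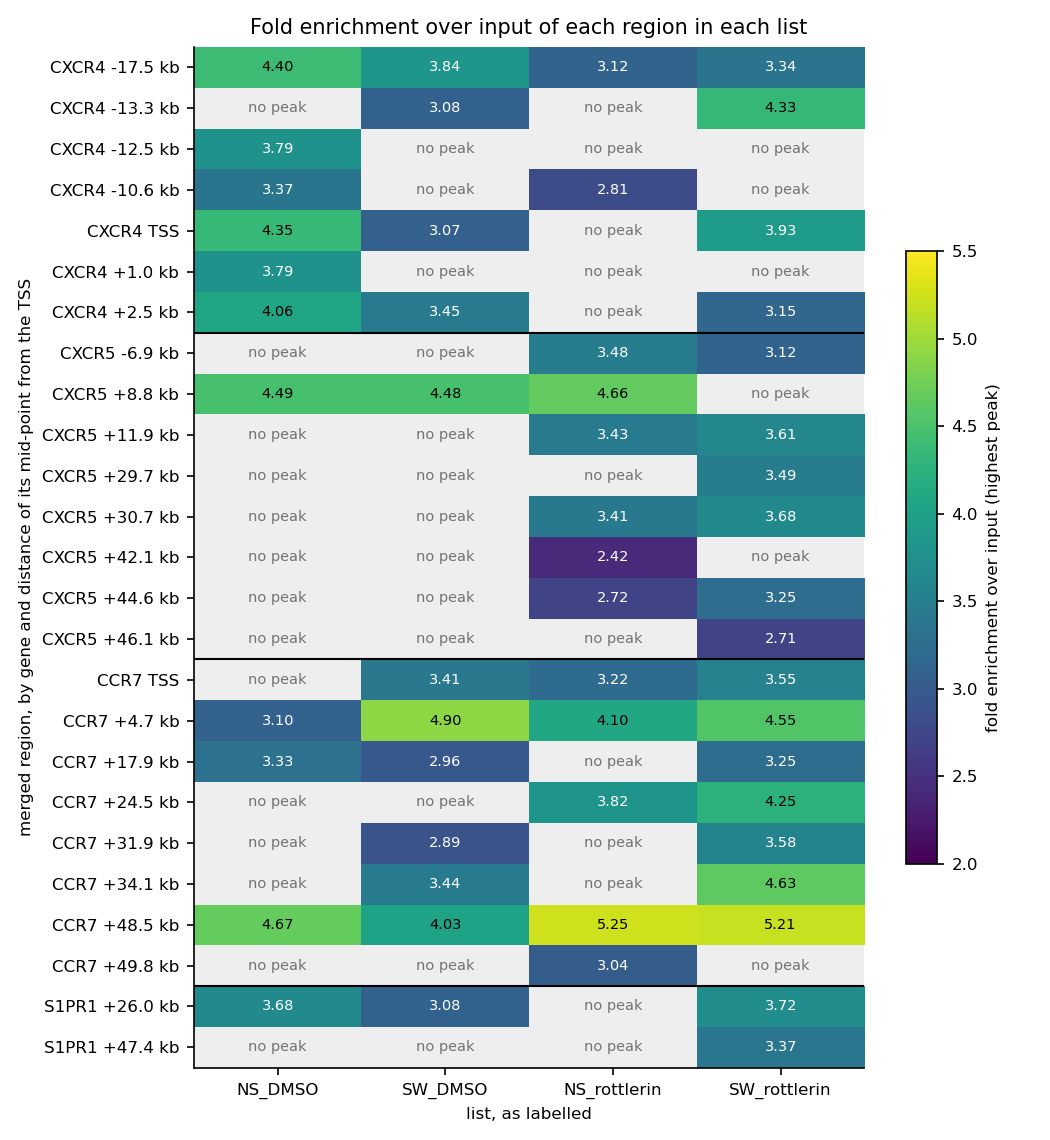
Fold enrichment over input (colour and printed value) of the 25 merged regions (rows, ordered along each gene) in each of the 4 lists (columns), with grey cells where no peak was called. CXCR4 is filled mostly in NS_DMSO, CXCR5 mostly in the rottlerin-labelled lists, and 3 rows are filled throughout, those of CXCR4 17.5 kb upstream and CCR7 4.7 and 48.5 kb from the TSS.

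Set beside NS_DMSO, each of the other lists had both gains and losses at the members. In SW_DMSO, 4 of 12 member regions with a peak (33.3%) had no NS_DMSO peak, against 37.4% of all regions of that list, and 3 of 11 NS_DMSO regions (27.3%) had no SW_DMSO peak, against 33.7%. In NS_rottlerin, 8 of 13 (61.5%) had no NS_DMSO peak against 42.3% of all, and 6 of 11 NS_DMSO regions (54.5%) were without an NS_rottlerin peak against 27.6%. Of these 6, 4 were from CXCR4. In SW_rottlerin, 12 of 19 (63.2%) had no NS_DMSO peak against 53.7%, and 4 of 11 (36.4%) were without a SW_rottlerin peak against 25.8%. With 11 to 19 regions a list, the member shares are coarse, and no test was made of them.

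Where both lists had a peak, enrichment at members mostly differed little. In SW_DMSO over NS_DMSO, the median ratio was 0.867 over 8 member regions (0.706 to 1.58) against 0.98 over all 12550 shared regions, and 1 of 8 was above 1 against 45.1% of all. A 1.5-fold higher value was found at 1 of 8 members, the CCR7 region in the gene, against 1.67% of all, and a 1.5-fold lower one at 0 of 8 against 2.18%. In NS_rottlerin over NS_DMSO the median was 1.04 over 5 members and 1.04 over all, with 0 of 5 past 1.5-fold either way against 3.19% higher and 1.38% lower. In SW_rottlerin over NS_DMSO it was 0.978 over 7 members and 1.06 over all, with 0 of 7 past 1.5-fold against 4.5% higher and 1.54% lower. In SW_rottlerin over SW_DMSO, the labels' comparison of rottlerin with DMSO in the rested state, it was 1.21 over 11 members and 1.08 over all, with 8 of 11 above 1 against 69.3% of all, and 0 of 11 past 1.5-fold, against 3.75% higher and 0.344% lower.

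By gene, every CXCR4 ratio against NS_DMSO was below 1, at 0.706 to 0.873 in SW_DMSO, 0.71 and 0.835 in NS_rottlerin and 0.761 to 0.904 in SW_rottlerin. Over all shared regions, 45.1%, 58.7% and 63.2% of ratios were above 1 in these lists. The CXCR4 region 13.3 kb upstream had no NS_DMSO peak and so has no ratio here. At CCR7 the region in the gene was above NS_DMSO in each of the other lists, while the region 17.9 kb downstream was below it in both lists that called it, at 0.89 and 0.978. The CCR7 region 48.5 kb downstream was at 0.862 in SW_DMSO and at 1.12 in each of NS_rottlerin and SW_rottlerin. The CXCR5 intron was at 0.999 in SW_DMSO and 1.04 in NS_rottlerin. At S1PR1 the region 26.0 kb from the TSS was at 0.837 in SW_DMSO and 1.01 in SW_rottlerin. These comparisons share the NS_DMSO list and are not independent of each other.

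**Figure D3:**
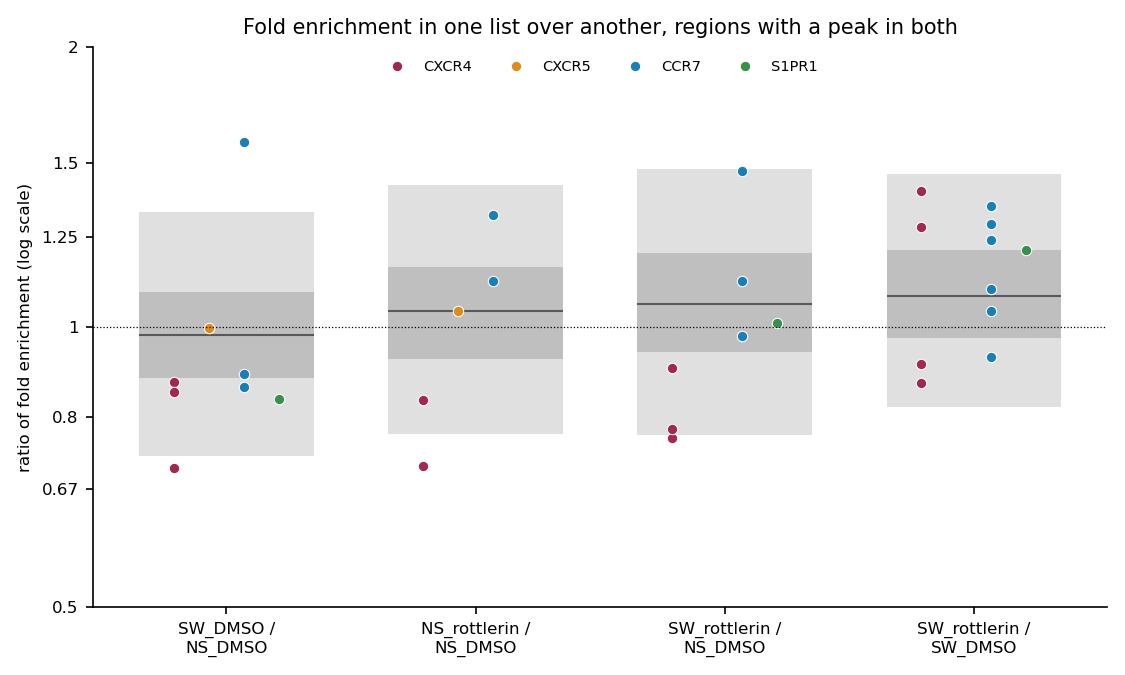
Ratio of fold enrichment between lists (y axis, log scale) for member regions with a peak in both, coloured by gene, in 4 comparisons (x axis). Dark and light grey boxes span the middle 50% and the middle 90% of all shared regions and the line is their median. The CXCR4 points lie below 1 in each comparison with NS_DMSO, and the CCR7 point at 1.58 is above the light box in SW_DMSO over NS_DMSO.

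The member regions had a higher median GC content than all regions together. Their central 300 bp had a median GC content of 56.7% (lowest 43.3%, highest 68.3%), against 46.3% over all regions, while the median number of CpG dinucleotides was 5 against 4. A CpG island-like composition (GC above 50% and an observed to expected CpG ratio of at least 0.6) was found at 5 of 25 against 21.0% of all. Median width was 317 bp against 294 bp, and 6 of 25 (24.0%) were 500 bp or wider against 23.6%. Of all regions called in every list 50.2% were island-like. The CXCR4 region 17.5 kb upstream held 2 CpG dinucleotides, the CCR7 region 4.7 kb into the gene held 8 and the CCR7 region 48.5 kb downstream held 1, against a median of 15 over the 10841 regions called in every list, and none of the 3 was island-like.

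Consensus sequences were sought on both strands of the same 300 bp, which run past the edges of narrower regions. CCACCC, the core bound by KLF factors such as KLF2 and by SP factors, was present in 15 of 25 member regions (60.0%) against 26.5% of all regions. It is GC rich, and among regions of 50 to 65% GC it was found in 9 of 15 members and in 39.6% of all 10453. It was in 4 regions of CXCR4, 5 of CXCR5 and 6 of CCR7, and in neither region of S1PR1. In the CXCR4 promoter it occurs 3 times, as the capitals in its sequence show.

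The sequences bound by other T cell factors were found in fewer members. TGTGGT, bound by RUNX factors, was in 9 members (36.0%) against 32.8%, and AGGAAGT, bound by ETS factors, in 4 (16.0%) against 15.5%. TGANTCA, a loose form of the AP1 sequence that allows any middle base, was in 2 (8.0%) against 17.9%. One of these, TGAATCA, is 12.5 kb upstream of CXCR4 and lies in the 300 bp but outside the merged region. The other, at the CCR7 promoter, is TGACTCA. Shares for a stricter form were not taken. AGATAA, bound by GATA factors, was in 2 (8.0%) against 21.0%, and TGGAAA, the NFAT core, in 5 of 25 against 27.9%, of which 3 were CCR7 regions. Shares also depend on GC content. Among regions of 50 to 65% GC, AGATAA was in 1 of 15 members against 10.1% of all, and TGGAAA in 2 against 22.3%. There TGANTCA was in 1 against 15.4%, TGTGGT in 5 against 28.2% and AGGAAGT in 2 against 15.4%.

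GTAAACA, bound by FOXO factors, was in 1 region (4.0% against 3.87%), the CXCR5 intron. GGNNTTTCC, an NF-kB sequence, was in 1 (4.0% against 6.6%), the CCR7 region 34.1 kb downstream, where it overlaps an NFAT core on the other strand. The E-box sequence CACCTG was in 7 (28.0% against 21.4%), of which 5 were CXCR5 regions. A second E-box, CAGCTG, was in 5 of 25, against 17.1%. Among regions of 50 to 65% GC, CACCTG was in 6 of 15 members against 29.7% of all, and CAGCTG in 4 against 24.1%. There GTAAACA was in 1 against 2.62%, and GGNNTTTCC in 0 against 8.21%. A match is a description of letters and does not show that a factor was bound.

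Of 19 other chemokine receptor genes, 18 had a region by the same rule, where 85.6% of all coding genes had one, and 16 had a region without an NS_DMSO peak, where 68.0% of all coding genes did. Their 74 distinct regions lacked an NS_DMSO peak in 45.9% of cases and were in every list in 31.1%. Over all regions these shares were 53.5% and 26.6%. All 4 other S1P receptor genes had a region, 12 in all, 41.7% without an NS_DMSO peak and 50.0% in every list.

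The 8 genes for the ligands and for S1P synthesis, export and breakdown had 16 regions, of which 25.0% lacked an NS_DMSO peak. CXCL12, the CXCR4 ligand, and CXCL13, the CXCR5 ligand, had 1 region each. The 9 adhesion molecule genes had 64 regions, 51.6% without an NS_DMSO peak and 25.0% in every list. Of the 11 regulator genes 10 had a region, 63 in all, 49.2% without an NS_DMSO peak. The share over all regions was 53.5% without an NS_DMSO peak and 26.6% in every list. Shares over as few as 16 regions are coarse.

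Among these regulators, KLF2, known to activate S1PR1, had 6 regions with a peak in NS_DMSO, 5 in SW_DMSO, 2 in NS_rottlerin and 5 in SW_rottlerin. CD69, which removes S1PR1 from the surface of stimulated cells, had 3, 7, 7 and 6. FOXO1, which acts upstream of KLF2 and CCR7, had 0, 0, 2 and 3. RGS1, a brake on chemokine receptor signalling, had no region.

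**Figure D4:**
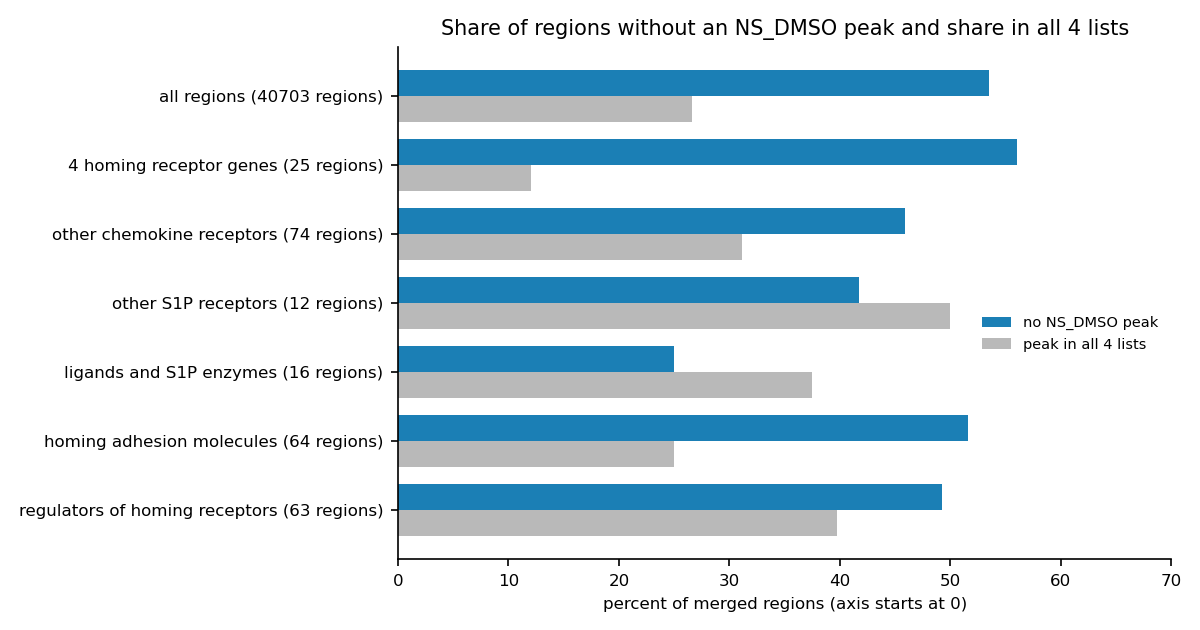
Percent of merged regions (x axis, from 0) without an NS_DMSO peak (blue) and with a peak in every list (grey), for all 40703 regions, the 25 at the 4 homing receptor genes and 5 groups of related genes. The 4 homing receptor genes have the lowest share in every list, 12.0%, and 56.0% without an NS_DMSO peak, close to the 53.5% of all regions.

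The summed enrichment of a gene's regions in each list was taken as its profile. The most similar coding genes were found by the Euclidean distance of the log2 sums plus 1 over the 4 lists. Genes that share a merged region with the member, such as close neighbours, were left out. CXCR4 had sums of 23.8, 13.4, 5.93 and 14.8, and SLIT1 (24.6, 15.4, 7.68 and 13.5) and NEGR1 were nearest. CXCR5 had 4.49, 4.48, 20.1 and 19.9, and DUSP6 (4.73, 4.8, 19.5 and 18.5) and CDHR4 were nearest. CCR7 had 11.1, 21.6, 19.4 and 29.0, and SYT12 (11.0, 22.1, 18.9 and 28.0) and TNIP3 were nearest. S1PR1 had 3.68, 3.08, 0.0 and 7.09, and DCDC2 and MS4A1 were nearest. With 4 points a gene, such likeness is a description of calls.

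As a check of the cells, a peak within 1 kb of the TSS was sought at marker genes. Of 6 T cell markers (CD2, CD3D, CD3E, CD3G, CD247 and LCK), 4, 4, 3 and 4 had one in the lists labelled NS_DMSO, SW_DMSO, NS_rottlerin and SW_rottlerin, where the shares of all coding genes were 34.2%, 35.4%, 38.5% and 42.5%. Of TAL1 and LMO2, transcription factor genes known from T cell leukaemia, TAL1 had one in the lists labelled SW and LMO2 in none. None of 4 B cell or 4 myeloid markers had one in any list, and of 2 fibroblast markers COL1A1 had one in 3 lists.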

How the data were processed

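FAIRE-seq was performed on Jurkat cells, with 1 library per group and a total input library. By the study's methods and the submitters' processing notes, adapters were trimmed with cutadapt, reads were mapped to hg19 with Bowtie2, duplicates were removed with Picard, and broad peaks were called against total input with MACS2. Each list deposited by the authors gives for a peak a score, the fold enrichment over input as a ratio (column 7), and both p-value and q-value as −log10. The score is a rescaled q-value and was not used. Lists held 163 to 427 peaks with a q-value above 0.05, none of them at members. Depth and read counts are unknown from the lists.

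Peaks were merged when they overlapped by at least 1 bp or touched, a step identical to bedtools 2.31.1. Of 40731 merged regions, 40703 were on the autosomes, X and Y. GENCODE release 44 on GRCh37 gave genes and features, and sequences were read from the GRCh37 genome. Groups were taken from the sample titles, which name the state and rottlerin. Samples without rottlerin in the title were named DMSO, the vehicle that the study gives. Merging, windows and motif search were tested on simulated data, where 4000 of 4000 planted regions and 1000 of 1000 planted motifs were found. Shares have 95% Wilson intervals. No test was possible with 1 library per group. Alternatives covered windows, transcripts, q-values, list length, overlap and fold limits, and leaving out each list was chosen after seeing the data.

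Every region of a member was described, with coordinates for those called in every list and for some others. The 2 most similar genes per member, among those sharing no region with it, were named. Some items are not reported here. The members and gene lists were chosen with earlier results of these data known. Software was samtools 1.23.1, matplotlib 3.10.9 and pysam 0.24.0, run from Python 3.11.15 with pandas 2.3.3 and numpy 2.4.6.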

Additional observations from a re-analysis of the deposited data

Results flagged for a closer look

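At the CXCR4 region 17.5 kb upstream of the TSS, enrichment in SW against NS moved in opposite ways in the pairs of lists, with a ratio of 0.873 in the lists labelled DMSO and 1.07 in those labelled rottlerin. Each ratio rests on 1 library per list, the difference was not tested, and the labels of these lists are in doubt. Of the 3 member regions with a peak in every list, it was the one where the direction differed.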

How the results depend on the processing

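No paired analysis was possible because each group has 1 library. Depth, which the lists do not give, limits every absence of a peak. Of 187 values recomputed under 18 settings, 145 stayed within 1.5-fold of the count, or within the interval of the share. This tally is not a measure of stability. No member peak had a q-value above 0.05, so the limit of 0.05 could not change a member value. Keeping touching peaks apart, using every annotated TSS and using mid-points also left the member counts unchanged. With 25 kb there were 14 regions in all, 3 at CXCR5, 4 at CCR7 and 0 at S1PR1, and 35.7% had no NS_DMSO peak. With 100 kb there were 47 in all, 13 at CXCR4, 11 at CXCR5, 13 at CCR7 and 10 at S1PR1. Those without an NS_DMSO peak then numbered 6 at CXCR4, against 1 in the main window, 9 at CXCR5, 9 at CCR7 and 5 at S1PR1. They made up 61.7% of the members. In the 50% of each list with the higher −log10 q there were 13 in all, 4 at CXCR4, 2 at CXCR5 and 1 at S1PR1. With 18998 peaks in each list there were 4 at CXCR5 and 1 at S1PR1. Counting regions whose nearest coding TSS is the member's left 3 at CXCR5 and 5 at CCR7, and without the SW_rottlerin list S1PR1 had 1. With a limit of 25% in place of 1.5-fold, SW_DMSO was lower than NS_DMSO at 1 of 8 regions (11.3% of all), NS_rottlerin was higher than NS_DMSO at 1 of 5 (14.5%) and lower at 1 (7.33%), SW_rottlerin was higher than NS_DMSO at 1 of 7 (18.3%) and lower at 2 (7.2%), and SW_rottlerin was higher than SW_DMSO at 4 of 11 (19.0%). In the central 500 bp there were 10 regions with TGGAAA, 4 with AGATAA, 2 with GGNNTTTCC, 12 with CACCTG and 9 with CAGCTG. No share over all regions was taken at 500 bp. These counts cannot be set against the shares at 300 bp, since a wider stretch has more room for a match.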
